A study of Mus musculus with 36 samples.

Results

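The 10 genes described here build and load MHC class I molecules in the mouse: the heavy chains H2-K1 and H2-D1, the light chain B2m, the peptide transporter subunits Tap1 and Tap2, the loading factor Tapbp, the immunoproteasome subunits Psmb8, Psmb9 and Psmb10, and the transactivator Nlrc5. They were chosen by name and no expression value entered the rule, but earlier results of these data were known. They are 10 of the 34829 genes in the deposited table. The table holds 36 liver libraries from C57BL6/J mice that were given an injection of bacterial lipopolysaccharide (LPS), a Gram-negative outer membrane component that sets off innate immune signalling. Mice were kept at 30 °C, close to the warmth at which a mouse spends little energy on heat, or at 22 °C, an ordinary animal room. At 30 °C there were 5 livers at 0 h, 4 at 4 h, 4 at 12 h and 5 at 24 h, and at 22 °C there were 4, 4, 5 and 5. All groups share the strain and carry no genetic change, and the labels give no age, sex or LPS dose. No liver was taken at a later time without LPS, so LPS cannot be told apart from injection, time of day or feeding. The labels do not say that each library is a separate animal, so a liver stands here for 1 library, and p-values measure the spread between libraries, which may be partly technical.

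Nearly every nucleated cell shows short peptides from its own proteins on class I molecules, which CD8 T cells and natural killer cells read. Proteasomes cut the peptides, the TAP transporter carries them into the endoplasmic reticulum, and tapasin (Tapbp) holds the empty molecule at the transporter until a peptide fits. Interferons raise most of these genes, in part through IRF1 and NLRC5, and bring in catalytic subunits that take the places of the constitutive ones in newly made proteasomes. In liver, hepatocytes, Kupffer cells and sinusoidal endothelial cells all carry class I.

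In the GENCODE M21 annotation of GRCm38, 7 of the 10 genes lie on chromosome 17, in the mouse MHC. Psmb9 (chr17:34181987-34187764, minus strand), Tap1 (chr17:34187553-34197225, plus), Psmb8 (chr17:34197721-34201454, plus) and Tap2 (chr17:34203527-34216321, plus) stand side by side within 34.3 kb. Tapbp (chr17:33915899-33929292, plus), H2-K1 (chr17:33996017-34000347, minus) and H2-D1 (chr17:35262730-35267499, plus) flank them. Psmb10 (chr8:105935735-105938444, minus) and Nlrc5 (chr8:94434356-94527272, plus) lie on chromosome 8, and B2m (chr2:122147686-122153083, plus) lies on chromosome 2. The annotated spans of Psmb9 and Tap1 overlap at their 5′ ends on opposite strands, and the sources used here do not say whether counting used the strand.

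Promoter windows of 250 bases before to 50 after the annotated start (RefSeq, GRCm38.p6) were found for 8 of the 10 genes. Those of Tapbp, Psmb8 and Psmb10, which also rose by 4 h, are not shown. The stretches below are shown because they hold matches to the motifs named below (H2-K1, H2-D1 and B2m) or lie between divergent starts (Tap1 and Psmb9). They come from H2-K1 (chr17:34000414-34000473, minus strand), H2-D1 (chr17:35262908-35262967, plus), B2m (chr2:122147533-122147585, plus) and the gap between the divergent starts of Tap1 and Psmb9 (chr17:34187331-34187555, plus), each written 5′ to 3′ on the strand named. Capitals mark matches to an NF-kB consensus and to an interferon-response core (GAAA, any 2 bases and GAAA again in B2m, and a looser GAANNGAAA in H2-K1 and H2-D1, which was added after the windows were seen).
H2-K1: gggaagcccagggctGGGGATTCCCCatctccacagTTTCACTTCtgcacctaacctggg
H2-D1: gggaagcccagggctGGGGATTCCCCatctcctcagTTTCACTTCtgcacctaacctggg
B2m: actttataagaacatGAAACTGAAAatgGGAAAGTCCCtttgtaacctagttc
Tap1-Psmb9: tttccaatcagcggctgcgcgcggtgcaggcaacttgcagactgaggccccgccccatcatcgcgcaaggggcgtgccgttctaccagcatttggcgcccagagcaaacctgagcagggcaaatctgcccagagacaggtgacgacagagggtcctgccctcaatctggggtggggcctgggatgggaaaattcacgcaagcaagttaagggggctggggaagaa
The stretches of H2-K1 and H2-D1 share 59 of 60 bases, with the motif matches on the same bases of both. With both strands searched, 1 of the 8 genes (B2m) held the interferon-response core, 2 held the looser run, and 3 (H2-K1, H2-D1 and B2m) held the NF-kB consensus. Over 32851 windows of the same length the shares were 3.44%, 7.52% and 4.51% in the same order. None of these motifs was matched in the stretch between Tap1 and Psmb9. A match is a description of letters and not a measured site.

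Values below are the authors' scaled reads per base unless another column is named. Differences are log2 differences of (value + 1) with their standard errors, tested with limma over all 36 libraries. P-values were adjusted by the Benjamini-Hochberg method over the 8702 genes whose mean was at least 5, and a gene was called below 0.05. Tap2 averaged 4.31 over all libraries and fell short of that mean, so 9 of the 10 genes were tested and Tap2 is given from a fit without the filter. Libraries held an estimated 557000 to 2744000 reads, so that 3 reads were worth 1.33 to 5.05 units; 13 libraries were below 3 reads for Tap2 and 1 for Psmb9, and none for the other 8 genes. In 1 library, replicate 4 at 30 °C and 4 h, 9 genes held 22.2% of the signal, against at most 1.14% elsewhere; leaving it out changed no call among the 10 genes. The 6 hepatocyte markers fixed as a check of the tissue label summed to 10068 to 39844 over the libraries, with lower sums at 12 h and 24 h than at 0 h, and none was at 0. H2-K1 and H2-D1 shared 22.8% and 26.7% of their 31-base words with other genes, among them each other and H2-Q genes. In the last 500 bases, the part nearest the 3′ end, the shares were 26.4% and 34.5%. Reads may be split between these genes, so the values of H2-K1 and H2-D1 are uncertain to that extent.

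**Figure D1:**
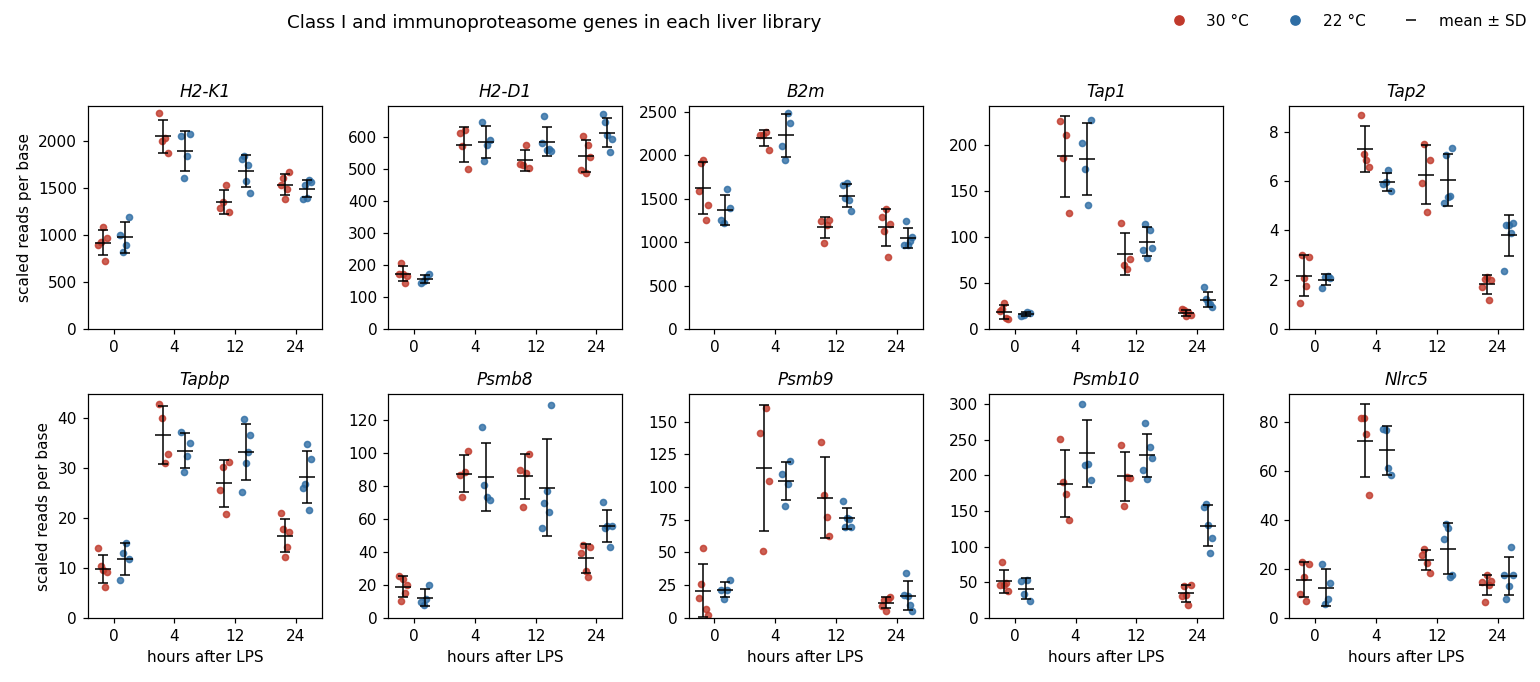
Scaled reads per base (vertical axis, linear, from 0) of the 10 genes at 0, 4, 12 and 24 h after LPS. Each point is 1 liver library, in red at 30 °C and blue at 22 °C, with the mean and SD in black; the points of both temperatures lie together up to 12 h for most genes, and at 24 h those of Psmb10, Tap1, Tap2 and Tapbp lie apart.

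Levels of different genes are given here in the deposited tpm column, which behaves as divided by transcript length. The reads come from 3′ ends, so division by length can shift the order of the genes. In that column the order of the 10 genes before LPS was the same at both temperatures. At 0 h B2m stood first with 1837 ± 348 in 30 °C livers and 1539 ± 205 in 22 °C livers in that column (SD, n = 5 and 4), H2-K1 next with 1007 ± 147 in 30 °C livers and 1062 ± 176 in 22 °C livers, and H2-D1 after it with 323 ± 41.1 in 30 °C livers and 290.5 ± 23.3 in 22 °C livers. The libraries of each of these 3 genes did not overlap with those of the next gene down. Psmb10 followed, with 64.1 ± 19.7 in 30 °C livers and 50.5 ± 18.3 in 22 °C livers, and Tap1 last, with 6.36 ± 2.54 in 30 °C livers and 5.65 ± 0.794 in 22 °C livers; from Psmb10 down, neighbours overlapped, except Tapbp and Psmb8 at 22 °C. At 24 h H2-K1 was the highest of the 10, with 1654 ± 119 in 30 °C livers and 1616 ± 96.99 in 22 °C livers, and B2m followed with 1304 ± 234 in 30 °C livers and 1175 ± 129 in 22 °C livers (SD, n = 5 each); their libraries overlapped at 30 °C and did not at 22 °C. Tap1, Tap2 and Nlrc5 were then the 3 lowest in that column at both temperatures, and neighbours among them overlapped. The low rank of Tap1 did not hold in scaled reads per base. There Tap2, Psmb9 and Nlrc5 were the 3 lowest at 24 h at both temperatures. At 0 h Tap1 averaged 18.7 at 30 °C and 16.8 at 22 °C on that scale, above Tap2 with 2.17 and 2.01. The order below Psmb9 at 0 h also differed between temperatures on that scale.

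All 9 tested genes were higher at 4 h than at 0 h at both temperatures, and fewer of them were higher than at 0 h at 24 h. At 30 °C 9 of 9 rose by 4 h, where 32.5% of all tested genes were called and 17.8% were called higher; at 22 °C 9 of 9 rose, where 29.4% were called and 15.8% were called higher. The median log2 difference of the 9 was 1.86 at 30 °C and 2.25 at 22 °C, beside −0.04 and −0.10 over all genes tested. By 12 h, 7 were higher and B2m was lower than at 0 h at 30 °C (38.3% of all genes called, 19.3% higher and 18.9% lower), and 8 were higher at 22 °C (41.4% called, 20.7% higher). By 24 h, 4 were higher and B2m was lower at 30 °C (29.7% called, 15.3% higher and 14.4% lower), and 6 were higher and B2m was lower at 22 °C (37.0% called, 19.0% higher and 18.0% lower). The contrasts with 0 h at 1 temperature share the same 0 h libraries. No difference between temperatures in the change since 0 h was called for the 9 genes at 4 h or 12 h, where 0.0115% and 0.276% of all genes were called; 0 and 1 of the 9 had an unadjusted p under 0.05.

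**Figure D2:**
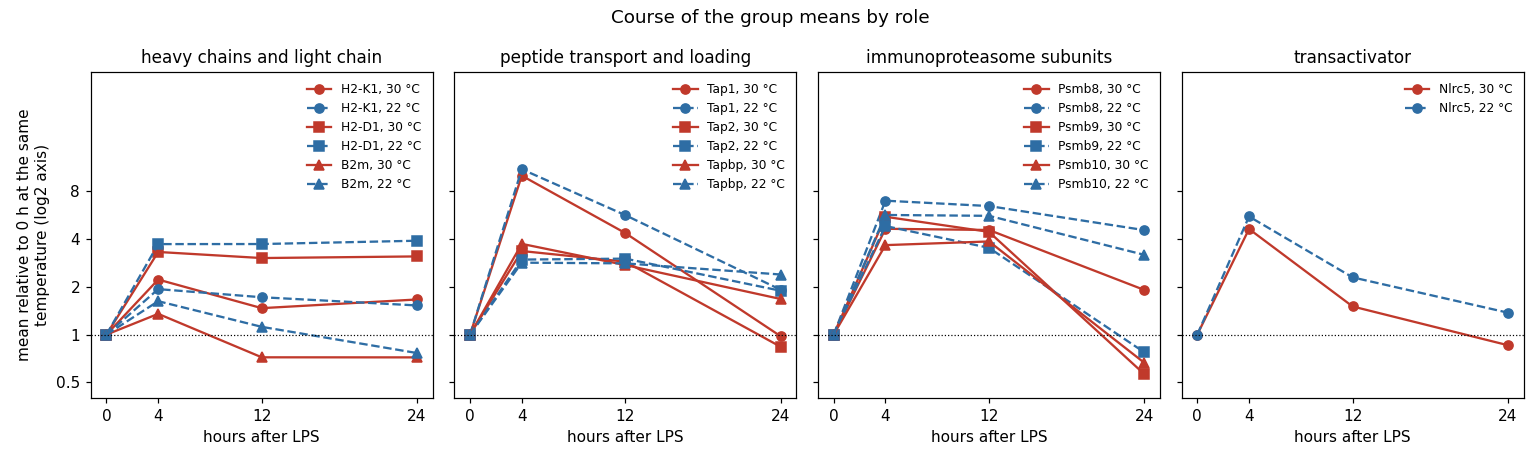
Group means relative to the 0 h mean at the same temperature (vertical log2 axis) against hours after LPS, by role, with solid red lines for 30 °C and dashed blue lines for 22 °C. Heavy chains kept 74.9% to 100% of their highest mean at 24 h, whereas Tap1 kept 9.76% at 30 °C and 17.4% at 22 °C, and Psmb10 kept 17.2% at 30 °C and 56.1% at 22 °C.

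The heavy chains, which bind the peptide, rose by 4 h and remained above their 0 h level through 24 h at both temperatures. H2-D1 had 174, 208, 173, 146 and 167 in 30 °C livers, against 144, 150.0, 162 and 172 in 22 °C livers at 0 h. At 4 h it had 611, 570.2, 620.0 and 499 in 30 °C livers, against 646, 525, 575 and 588 in 22 °C livers. At 24 h it had 497, 602, 486, 573 and 537 in 30 °C livers, against 669, 644, 605, 552 and 593 in 22 °C livers. Every liver after LPS was above every liver at 0 h, and the 2 temperatures overlapped at each of these times. The log2 difference from 0 h was 1.73 ± 0.11 at 4 h, 1.60 ± 0.11 at 12 h and 1.63 ± 0.10 at 24 h at 30 °C. At 22 °C it was 1.88 ± 0.11, 1.89 ± 0.11 and 1.96 ± 0.11 at the same times; the adjusted p (limma) was at most 5.52e-14 in these 6 contrasts. H2-K1, the other classical heavy chain of this strain, started higher and rose less. It had 893, 925, 1083, 730.2 and 974 in 30 °C livers, against 996, 823, 893 and 1197 in 22 °C livers at 0 h. At 4 h it had 2291, 1996, 2024 and 1873 in 30 °C livers, against 2047, 1609, 1838 and 2067 in 22 °C livers. The 4 h livers lay above the 0 h livers at both temperatures, by 1.16 ± 0.12 at 30 °C and 0.96 ± 0.12 at 22 °C on the log2 scale (adjusted p from limma = 7.91e-10 and 1.48e-07). At 24 h H2-K1 was still higher than at 0 h, the difference being 0.74 ± 0.11 at 30 °C and 0.62 ± 0.12 at 22 °C (adjusted p from limma = 2.40e-06 and 6.32e-05).

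B2m, the light chain that every class I molecule needs, rose briefly and was below its 0 h level at 24 h. It had 1587, 1908, 1948, 1259 and 1430.3 in 30 °C livers, against 1261, 1219, 1609 and 1396 in 22 °C livers at 0 h. By 4 h the values were 2232, 2231, 2270.1 and 2059.6 in 30 °C livers, against 2107, 1943, 2482 and 2373 in 22 °C livers. The 12 h values were 1241, 989, 1195 and 1259 in 30 °C livers, against 1653, 1504, 1676, 1481 and 1362 in 22 °C livers. At 12 h every 30 °C liver was below every 22 °C liver, as in 5.31% of all genes, but the difference of −0.39 ± 0.14 was not called (adjusted p from limma = 0.0967). At 24 h B2m had 1295, 1124, 1387, 836 and 1208 in 30 °C livers, against 964, 1247, 969, 1013 and 1059 in 22 °C livers, and the temperatures overlapped. The log2 difference from 0 h was 0.45 ± 0.14 at 4 h, −0.46 ± 0.14 at 12 h and −0.48 ± 0.13 at 24 h at 30 °C, with adjusted p from limma = 0.0093, 0.00677 and 0.00446. At 22 °C it was 0.70 ± 0.14, 0.17 ± 0.14 and −0.38 ± 0.14, with adjusted p from limma = 0.000231, 0.342 and 0.0248. The fall by 24 h at 22 °C lost its call without 0 h replicate 3 or 4 or without 24 h replicate 1 or 3 (adjusted p 0.0542 to 0.112), and the fall by 24 h at 30 °C lost it in a fit of those groups alone (0.0571). With upper-quartile rescaling the rise by 4 h at 30 °C was 0.31 and lost its call (0.0779).

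Tap1, the transporter subunit whose gene shares its 5′ end with Psmb9, rose most of the 9 by 4 h at both temperatures and lost most of that rise by 24 h. It had 19.8, 21.8, 28.9, 11.9 and 11.4 in 30 °C livers, against 14.2, 15.6, 19.3 and 18.2 in 22 °C livers at 0 h. At 4 h the transporter gene had 226, 186, 211 and 127 in 30 °C livers, against 203, 174, 135 and 227 in 22 °C livers. By 12 h Tap1 had 115, 70.2, 65.1 and 76.01 in 30 °C livers, against 86.2, 115, 77.5, 108 and 88.2 in 22 °C livers. Every liver at 4 h and 12 h was above every liver at 0 h, and the temperatures overlapped at all 3 times. The rise by 4 h was 3.30 ± 0.23 at 30 °C and 3.36 ± 0.25 at 22 °C (adjusted p from limma = 1.59e-13 and 4.57e-13). At 24 h Tap1 had 21.7, 20.6, 14.6, 19.3 and 15.2 in 30 °C livers, against 45.9, 33.5, 28.8, 28.1 and 24.6 in 22 °C livers. Every 30 °C liver was then below every 22 °C liver. The difference from 0 h at 24 h was 0.03 ± 0.22 at 30 °C (adjusted p from limma = 0.932, interval −0.42 to 0.48) and 0.87 ± 0.23 at 22 °C (0.00331). Tap2, the partner subunit of the transporter, was close to the detection floor: 9 of 9 livers at 0 h, 3 of 5 at 30 °C and 24 h and 1 of 5 at 22 °C and 24 h were below 3 reads. At 4 h Tap2 averaged 7.29 ± 0.933 in 30 °C livers and 5.97 ± 0.357 in 22 °C livers, against 2.17 ± 0.824 at 30 °C and 2.01 ± 0.227 at 22 °C at 0 h (SD, n = 4, 4, 5 and 4). In the fit without a filter it was higher by 1.42 ± 0.21 at 30 °C and 1.21 ± 0.22 at 22 °C (adjusted p from limma = 5.86e-06 and 0.000163).

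Tapbp, which encodes tapasin, rose by 4 h and was still higher than at 0 h at 24 h at both temperatures. It had 13.98, 10.4, 9.64, 6.11 and 9.16 in 30 °C livers, against 7.52, 13.1, 14.9 and 11.8 in 22 °C livers at 0 h. The 4 h values were 42.97, 40.03, 30.96 and 32.8 in 30 °C livers, against 37.3, 29.3, 32.4 and 35.2 in 22 °C livers. At 24 h it had 20.96, 17.8, 12.2, 14.3 and 17.3 in 30 °C livers, against 25.95, 26.9, 34.9, 21.6 and 31.9 in 22 °C livers. The temperatures overlapped at 0 h and 4 h, and at 24 h every 30 °C liver was below every 22 °C liver, the nearest 2 being 21.0 at 30 °C and 21.6 at 22 °C. The rise by 4 h was 1.82 ± 0.21 at 30 °C and 1.46 ± 0.23 at 22 °C (adjusted p from limma = 1.91e-08 and 3.82e-06), and at 24 h 0.71 ± 0.20 at 30 °C and 1.21 ± 0.21 at 22 °C remained (0.00723 and 2.57e-05). The rise still present at 24 h at 30 °C was not called in a fit of its own groups alone (adjusted p = 0.0699). Tapbp shared 4.62% of its 31-base words with other genes, mainly its neighbour Zbtb22.

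The 3 immunoproteasome subunits were called higher at 4 h and at 12 h at both temperatures, and at 24 h they stood at different levels against 0 h. Psmb10, which takes the place of Psmb7, had 46.1, 78.7, 46.1, 49.2 and 37.01 in 30 °C livers, against 52.2, 33.2, 53.6 and 23.9 in 22 °C livers at 0 h. Psmb10 at 4 h had 251, 190.2, 174 and 138 in 30 °C livers, against 299, 215, 215 and 193 in 22 °C livers. At 12 h it had 242, 157, 198 and 197 in 30 °C livers, against 207, 273, 195, 239 and 224 in 22 °C livers. Every liver at 4 h and 12 h was above every liver at 0 h, and the temperatures overlapped at all 3 times. At 24 h Psmb10 had 30.7, 44.4, 32.03, 18.2 and 45.8 in 30 °C livers, against 155, 159, 130.4, 90.7 and 112 in 22 °C livers. All 5 livers at 30 °C were then inside or below the range at 0 h, whereas all 5 livers at 22 °C were above it. The difference from 0 h at 24 h was −0.60 ± 0.23 at 30 °C (adjusted p from limma = 0.0506) and 1.69 ± 0.25 at 22 °C (1.28e-06). The value at 30 °C lay near the threshold and was called lower with the tpm column (adjusted p = 0.039) and without 0 h replicate 5 or 24 h replicate 2 or 5 (0.0264 to 0.0303); with replicate number as a block it was also called (0.0314).

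Psmb8, which takes the place of Psmb5, had 25.3, 10.1, 23.6, 15.2 and 20.1 in 30 °C livers, against 9.85, 7.72, 11.6 and 19.8 in 22 °C livers at 0 h. At 4 h it had 86.4, 73.5, 88.6 and 101 in 30 °C livers, against 116, 80.7, 73.4 and 71.4 in 22 °C livers. At 24 h it had 39.5, 43.9, 28.6, 24.9 and 43.2 in 30 °C livers, against 69.9, 54.1, 55.9, 42.9 and 55.5 in 22 °C livers. Livers at 4 h were above those at 0 h at both temperatures; at 24 h the 22 °C livers were all above 0 h, and 1 of the 5 livers at 30 °C was within the range at 0 h. The rise by 4 h was 2.21 ± 0.26 at 30 °C and 2.75 ± 0.27 at 22 °C (adjusted p from limma = 1.47e-08 and 4.63e-10). At 24 h 0.93 ± 0.24 at 30 °C and 2.16 ± 0.26 at 22 °C remained (0.00336 and 2.44e-08). Psmb9, which takes the place of Psmb6, spread most between replicates. At 0 h it had 15.1, 26.1, 53.6, 6.55 and 2.51 in 30 °C livers, against 21.7, 14.4, 21.4 and 29.2 in 22 °C livers, and at 4 h 141, 50.9, 161 and 105 in 30 °C livers, against 109.9, 85.9, 102 and 120.1 in 22 °C livers. The lowest 30 °C liver at 4 h was below the highest at 0 h, and at 22 °C the times did not overlap. The rise by 4 h was 2.88 ± 0.49 at 30 °C and 2.25 ± 0.52 at 22 °C (adjusted p from limma = 1.83e-05 and 0.000999). At 24 h Psmb9 averaged 11.7 ± 4.38 in 30 °C livers and 16.8 ± 11.1 in 22 °C livers (SD, n = 5 each), and neither difference from 0 h was called (adjusted p from limma = 0.709 and 0.425).

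Nlrc5, the transactivator that binds class I promoters, rose by 4 h and had fallen again by 12 h. It had 9.63, 22.8, 16.8, 7.00 and 22.04 in 30 °C livers, against 22.2, 5.51, 7.63 and 14.2 in 22 °C livers at 0 h. By 4 h Nlrc5 had 81.8, 81.9, 75.3 and 50.5 in 30 °C livers, against 77.2, 76.95, 61.4 and 58.4 in 22 °C livers. At 12 h Nlrc5 had 25.5, 27.99, 22.3 and 18.4 in 30 °C livers, against 32.2, 38.6, 36.9, 16.7 and 17.4 in 22 °C livers. Livers at 4 h were above all those at 0 h and at 12 h, and the temperatures overlapped throughout. The rise by 4 h was 2.24 ± 0.36 at 30 °C and 2.54 ± 0.38 at 22 °C (adjusted p from limma = 6.71e-06 and 2.24e-06). At 12 h the difference from 0 h was 0.67 ± 0.36 at 30 °C, which was not called (0.146), and 1.22 ± 0.36 at 22 °C, which was (0.0064). The difference between these 2 changes was −0.55 ± 0.51 (adjusted p from limma = 0.732).

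The steps between neighbouring times give where the genes fell. Between 4 h and 12 h Tap1, B2m and Nlrc5 fell at both temperatures, and H2-K1 fell at 30 °C: 4 of 9 fell at 30 °C (30.2% of all genes called, 17.9% lower) and 3 of 9 at 22 °C (26.2% called, 14.4% lower). The 3 immunoproteasome subunits did not pass the test in this step, with log2 differences of −0.03, −0.25 and 0.09 for Psmb8, Psmb9 and Psmb10 at 30 °C and −0.15, −0.45 and −0.01 at 22 °C. Between 12 h and 24 h 5 of 9 fell at 30 °C (21.1% called, 9.52% lower), namely Psmb9, Psmb10, Tap1, Psmb8 and Tapbp. At 22 °C 4 of 9 fell (10.6% called, 6.60% lower), namely Psmb9, Tap1, Psmb10 and B2m. The step was −2.55 ± 0.25 in Psmb10 at 30 °C and −0.83 ± 0.23 at 22 °C (adjusted p from limma = 1.77e-09 and 0.0169), −2.90 ± 0.49 in Psmb9 at 30 °C and −2.34 ± 0.47 at 22 °C (4.28e-05 and 0.000736), and −2.08 ± 0.23 in Tap1 at 30 °C and −1.55 ± 0.22 at 22 °C (4.56e-08 and 8.45e-06). The heavy chains were not called in this step. At 22 °C the fall of Psmb10 lost its call without 12 h replicate 2 or 24 h replicate 4 (adjusted p = 0.0541 and 0.0654), and at 30 °C the fall of Tapbp lost its call without 12 h replicate 2 or 4 or 24 h replicate 3 (0.0655 to 0.0712).

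Between the temperatures, 3 genes of peptide supply and loading (Psmb10, Tap1 and Tapbp) were lower at 30 °C 24 h after LPS, and no difference was called in the heavy chains or B2m. No gene of the 9 was called at 0 h, 4 h or 12 h, where 0.506%, 0.207% and 4.26% of all genes were called; 1, 0 and 2 of the 9 had an unadjusted p under 0.05 (limma). At 24 h 3 of 9 were called, all lower at 30 °C, where 18.6% of all genes were called and 8.71% were called lower. Psmb10 averaged 34.2 ± 11.3 in 30 °C livers and 129 ± 28.9 in 22 °C livers, a log2 difference of −1.93 ± 0.23 (adjusted p from limma = 2.89e-07). Tap1 averaged 18.3 ± 3.20 in 30 °C livers and 32.2 ± 8.30 in 22 °C livers, a difference of −0.77 ± 0.22 (0.0132), and Tapbp 16.5 ± 3.37 in 30 °C livers and 28.3 ± 5.21 in 22 °C livers, a difference of −0.74 ± 0.20 (0.00816; SD, n = 5 each). In these 3 genes the 30 °C and 22 °C livers did not overlap, as in 5.72% of all genes on the lower side. Tap2 had 1.73, 2.05, 2.14, 1.20 and 1.99 in 30 °C livers, against 2.38, 4.21, 4.22, 3.89 and 4.29 in 22 °C livers, again without overlap, and in the fit without a filter differed by −0.76 ± 0.20 (0.0154). Without 22 °C replicate 1 the difference in Tap1 was −0.63 and lost its call (adjusted p = 0.055). Psmb10 and Tapbp were called without each of the 10 libraries in turn.

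Psmb8 averaged 36.02 ± 8.74 in 30 °C livers and 55.7 ± 9.60 in 22 °C livers at 24 h, a difference of −0.63 ± 0.24 with a 95% interval of −1.12 to −0.14, and was not called (adjusted p from limma = 0.0636); without 22 °C replicate 4 it was called (−0.72, 0.0479). H2-K1 differed by 0.04 ± 0.11 (interval −0.19 to 0.26), H2-D1 by −0.19 ± 0.10 (−0.39 to 0.02) and B2m by 0.14 ± 0.13 (−0.12 to 0.40). These intervals, unadjusted for the number of genes, hold no fall at 30 °C as large as the point estimates in Psmb10, Tap1 or Tapbp. The intervals of Tap1 (−1.22 to −0.32) and Tapbp (−1.15 to −0.33) overlap that of H2-D1, and no test compared the genes. The words that H2-K1 and H2-D1 share with other genes add an uncertainty that their intervals do not hold. Psmb9 differed by −0.34 ± 0.47 (−1.29 to 0.61) and Nlrc5 by −0.27 ± 0.34 (−0.96 to 0.42), and these wider intervals hold both no change and a fall as large as that in Tap1 or Tapbp. All 4 groups of the change since 0 h enter the test of the difference between temperatures, where 8.95% of all genes were called and 3.88% were called lower. There 2 of 9 were called: Psmb10 with a difference of −2.28 ± 0.34 (adjusted p from limma = 4.79e-05) and Psmb8 with −1.23 ± 0.35 (0.0237). Tap1 differed by −0.84 ± 0.32 and was not called (0.0987), except without 30 °C 0 h replicate 5 (0.047). The call in Psmb8 was lost without 22 °C 0 h replicate 1 or 2 (0.0508 and 0.0675), without the filter (0.052) and in a fit of the 4 groups alone (0.0664). The value of −1.23 in Psmb8 also holds its difference at 0 h. Psmb8 was then higher at 30 °C by 0.60 ± 0.26 (95% interval 0.07 to 1.12), which was not called. It is therefore not a difference between temperatures at 24 h alone, which was −0.63. In Psmb10 the difference was 0.36 ± 0.25 at 0 h, not called, beside −1.93 at 24 h.

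**Figure D3:**
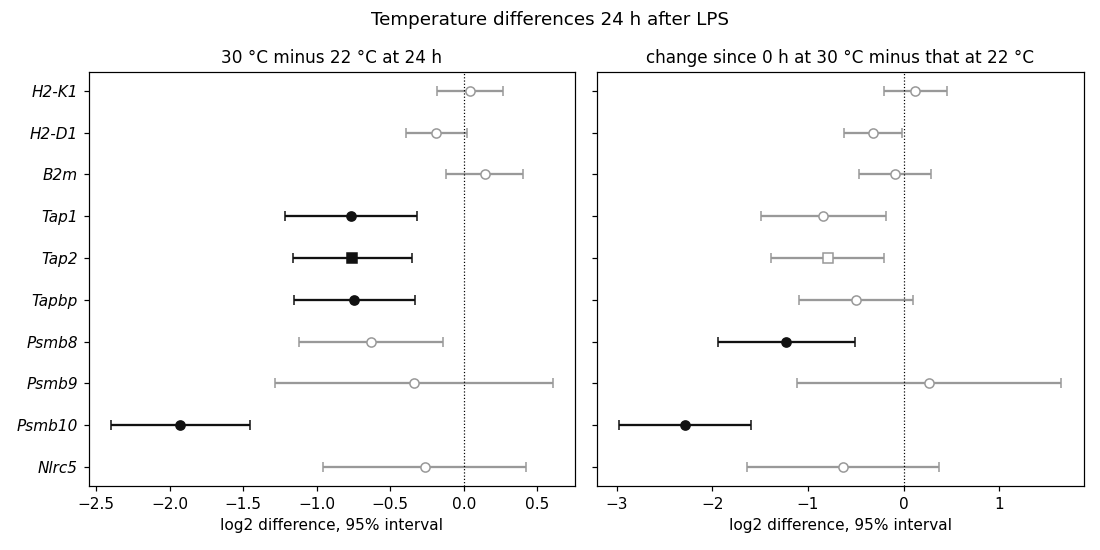
Log2 differences with 95% limma intervals for the 10 genes (top to bottom by role): left, 30 °C minus 22 °C at 24 h; right, the change since 0 h taken at 30 °C less the one at 22 °C. Filled black marks were called, open grey marks were not, and squares mark Tap2, from the fit without a filter; Psmb10 lies farthest from 0 in both panels, at −1.93 and −2.28.

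Psmb5, Psmb6 and Psmb7 are the constitutive subunits that the immunoproteasome subunits replace. At 22 °C none of the 3 was called by 4 h, beside 29.4% of all genes. At 30 °C 1 of 3 was called by 4 h, beside 32.5% of all genes. It was Psmb7, higher by 1.53 ± 0.50 (adjusted p from limma = 0.0179), and at 12 h it was again the one called, at 30 °C, by 1.36 ± 0.50 (0.0314). Psmb5 was higher at 24 h than at 0 h at 30 °C, by 0.64 ± 0.21 (0.0184), and at 24 h than at 12 h at 22 °C, by 0.74 ± 0.21 (0.0158). No other of the 3 was called against an earlier time. None of the 3 was called between temperatures at 24 h, where 18.6% of all genes were called. The differences were 0.03, −0.04 and −0.18 for Psmb5, Psmb6 and Psmb7. In the tpm column the ratio of Psmb8 to Psmb5 was 0.221 ± 0.0970 at 30 °C and 0.125 ± 0.0282 at 22 °C at 0 h, 1.25 ± 0.484 at 30 °C and 1.13 ± 0.502 at 22 °C at 4 h, and 0.257 ± 0.0610 at 30 °C and 0.412 ± 0.0972 at 22 °C at 24 h (SD, n = 5, 4, 4, 4, 5 and 5). The ratio of Psmb9 to Psmb6 was 0.0671 ± 0.0671 at 30 °C and 0.0816 ± 0.0257 at 22 °C at 0 h, 0.504 ± 0.222 at 30 °C and 0.433 ± 0.0414 at 22 °C at 4 h, and 0.0368 ± 0.0161 at 30 °C and 0.0510 ± 0.0347 at 22 °C at 24 h, with the same n. The ratio of Psmb10 to Psmb7 was 13.5 ± 9.76 at 30 °C and 5.76 ± 3.28 at 22 °C at 0 h, 12.95 ± 4.44 at 30 °C and 12.3 ± 6.39 at 22 °C at 4 h, and 3.65 ± 2.61 at 30 °C and 11.6 ± 7.86 at 22 °C at 24 h, again with the same n. Of these 3 times the ratios of Psmb8 and Psmb9 were highest at 4 h at both temperatures, and that of Psmb10 was so at 22 °C but not at 30 °C. At 24 h the libraries of all 3 ratios overlapped between temperatures. These are ratios of 3′ end signal divided by transcript length and not of protein. At 0 h the ratio of Psmb10 to Psmb7 ranged over the libraries from 3.22 to 27.2 at 30 °C and from 1.98 to 9.43 at 22 °C. That ratio rests on low tpm values of Psmb7, so it and the called rises of Psmb7 are uncertain.

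Of 9 peptide loading and trimming partners, all tested, 3 were higher at 4 h at 30 °C and 2 were higher and 1 lower at 22 °C, shares called that are near the 32.5% and 29.4% of all genes at those temperatures. Tapbpl, a tapasin-related protein that edits peptides, rose by 2.47 ± 0.25 at 30 °C and 2.93 ± 0.26 at 22 °C (adjusted p from limma = 6.65e-10 and 5.45e-11). Erap1, which trims peptides in the endoplasmic reticulum, rose at 30 °C by 0.59 ± 0.21 (0.0308), and Tpp2, a cytosolic peptidase, by 1.10 ± 0.32 at 30 °C and 0.89 ± 0.34 at 22 °C. The median of the 9 was 0.11 at 30 °C and −0.07 at 22 °C. At 24 h Tapbpl averaged 41.96 ± 10.8 in 30 °C livers and 91.7 ± 29.9 in 22 °C livers (SD, n = 5 each), lower at 30 °C with a log2 difference of −1.09 ± 0.23 (adjusted p from limma = 0.00104), and the change since 0 h differed by −1.34 ± 0.34 (0.0105). The other called gene of this list at 24 h, the aminopeptidase Lap3, was higher at 30 °C by 0.73 ± 0.17 (0.00253). At 24 h against 0 h, 2 of the 9 were higher and 2 lower at 30 °C (29.7% of all genes called), and 3 were higher and 2 lower at 22 °C (37.0%). The chaperones Calr and Pdia3 were higher at both temperatures, by 0.63 and 0.48 at 30 °C and by 0.92 and 0.71 at 22 °C. Lap3 and the aminopeptidase Npepps were lower at both, with differences of −0.79 and −1.07 at 30 °C and −1.46 and −1.19 at 22 °C. Tapbpl was higher at 22 °C by 0.96.

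Of 9 proteasome activator and assembly genes, 3 rose by 4 h at 30 °C and 2 at 22 °C, with none lower, beside 17.8% of all genes called higher at 30 °C and 15.8% at 22 °C. The median of the 9 was 0.15 at 30 °C and 0.09 at 22 °C. The called genes were Psme1 and Psme2, the subunits of the interferon-inducible activator PA28, at both temperatures and the assembly chaperone Pomp at 30 °C. Psme1 rose by 0.80 ± 0.21 at 30 °C and 1.16 ± 0.22 at 22 °C (adjusted p from limma = 0.00267 and 8.34e-05), and Psme2 by 1.07 ± 0.21 at 30 °C and 1.15 ± 0.22 at 22 °C (0.000141 and 0.000132). At 24 h none of the 9 was called between temperatures, where 18.6% of all genes were called.

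Of 20 other class I and class I-like genes, 13 were tested, and 6 rose and 1 fell by 4 h at 30 °C, where 32.5% of all genes were called and 17.8% higher. At 22 °C 6 rose and 2 fell, where 29.4% were called and 15.8% higher. The nonclassical heavy chains H2-Q4, H2-Q6 and H2-Q7 rose by 2.39, 2.65 and 2.14 at 30 °C and by 2.71, 2.81 and 2.52 at 22 °C on the log2 scale. At 24 h H2-Q4 averaged 41.5 ± 4.19 in 30 °C livers and 86.9 ± 17.1 in 22 °C livers and H2-Q6 23.7 ± 9.97 in 30 °C livers and 49.8 ± 6.54 in 22 °C livers (SD, n = 5 each). Both were lower at 30 °C, with log2 differences of −1.03 ± 0.22 and −1.14 ± 0.28 (adjusted p from limma = 0.00111 and 0.00331). Their sequences are close to those of H2-K1 and H2-D1, so reads could be split among them. Fcgrt, the class I-like receptor that salvages IgG and albumin, went the other way at 24 h: it averaged 53.8 ± 3.97 in 30 °C livers and 21.4 ± 6.37 in 22 °C livers, higher at 30 °C by 1.33 ± 0.17 (5.00e-07). The change since 0 h differed between temperatures in these 3 genes and in H2-Q7 (adjusted p from limma = 0.000292 for Fcgrt, 0.00743 for H2-Q4, 0.015 for H2-Q6 and 0.0499 for H2-Q7).

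Of 16 regulators of these genes, 13 were tested, and 10 rose and 1 fell by 4 h at 30 °C (17.8% of all genes higher), and 10 rose and 0 fell at 22 °C (15.8%). The median log2 difference of the 13 was 1.84 at 30 °C and 2.02 at 22 °C. Irf1, an interferon-induced factor acting on class I and immunoproteasome promoters, rose by 2.76 ± 0.27 at 30 °C and 2.97 ± 0.28 at 22 °C (adjusted p from limma = 3.84e-10 and 2.84e-10). The NF-kB subunit Rela and the myeloid and interferon factor Irf8 were lower at 30 °C at 24 h, with log2 differences of −0.96 ± 0.27 and −1.01 ± 0.35 (adjusted p from limma = 0.0118 and 0.0389). Irf1 was not among the called genes at 24 h, with 24.6 ± 9.67 in 30 °C livers and 21.3 ± 5.98 in 22 °C livers and a difference of 0.16 ± 0.25 (0.718).

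In whole liver, fewer cells of a type and less RNA per cell cannot be told apart, so markers of the main cell types are given beside the results at 24 h. Of the markers tested, none of 3 neutrophil, 7 Kupffer cell, 1 T or NK cell, 1 B cell and 2 general leukocyte markers was called between temperatures. Over all genes tested, 18.6% were called there. The 6 neutrophil markers summed to 168 to 350 in 30 °C livers and 120 to 275 in 22 °C livers, the 7 Kupffer cell markers to 78.5 to 96.7 at 30 °C and 42.5 to 97.2 at 22 °C, and the 3 leukocyte markers to 27.8 to 41.0 at 30 °C and 17.3 to 39.2 at 22 °C. The 12 T and NK cell markers summed to 18.1 to 33.0 at 30 °C and 8.50 to 27.1 at 22 °C, with Nkg7 at 0 in all 30 °C livers and Cd4 at 0 in all 22 °C livers, and 10 of the 12 at 30 °C and 11 at 22 °C had a mean below 3 reads. The 6 markers of monocytes and dendritic cells summed to 4.40 to 12.2 at 30 °C and 4.60 to 6.80 at 22 °C, with Cd209a at 0 in both groups and Itgax at 0 in 22 °C livers. The 4 B cell markers summed to 0.503 to 6.62 at 30 °C and 2.38 to 6.71 at 22 °C. On each of these immune lists the 2 temperatures overlapped, and the median was higher at 30 °C except for B cells. Clec4g and Kdr of the sinusoidal endothelial list (sums 69.9 to 164 at 30 °C and 70.2 to 144 at 22 °C), Lrat and Col3a1 of the stellate list (34.3 to 97.2 at 30 °C and 15.2 to 33.3 at 22 °C) and Cps1 of the hepatocyte list (10068 to 17448 at 30 °C and 11005 to 16219 at 22 °C) were called, all higher at 30 °C. The part of cell make-up in the lower Psmb10, Tap1 and Tapbp was not tested.

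Between 0 h and 4 h, markers of several cell types moved while the class I genes rose. The neutrophil sums were 117 to 216 at 4 h and 25.9 to 52.3 at 0 h in 30 °C livers. They were 81.4 to 122 at 4 h and 19.6 to 30.3 at 0 h in 22 °C livers. S100a8 and S100a9 were called higher at both temperatures. The Kupffer cell sums were 105 to 144 at 4 h and 207 to 259 at 0 h in 30 °C livers, and 93.2 to 143 at 4 h and 164 to 252 at 0 h in 22 °C livers. Sums of the T and NK cell list were 37.0 to 62.3 at 4 h and 5.27 to 10.2 at 0 h in 30 °C livers, and 23.2 to 45.8 at 4 h and 4.88 to 8.32 at 0 h in 22 °C livers. Its 1 tested gene, Gzmb, was called higher by 3.58 at 30 °C and 3.48 at 22 °C on the log2 scale. At 4 h 10 of the 12 at 30 °C and 11 at 22 °C had a mean below 3 reads. Clec4g and Kdr of the sinusoidal endothelial list and Lrat of the stellate list were called lower at both temperatures. Lyve1 of the endothelial list, Marco of the Kupffer cell list and Sox9 of the cholangiocyte list were called higher. Vsig4 and Csf1r of the Kupffer cell list were called lower at both temperatures, and Cd5l at 30 °C. Apoa1 and Hnf4a of the hepatocyte list were called at both temperatures, 1 higher and 1 lower. Hepatocyte sums at 4 h overlapped with those at 0 h at both temperatures.

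At 12 h and 24 h the hepatocyte sums were lower than at 0 h and the neutrophil sums higher, without overlap. Hepatocyte sums were 24134 to 39844 at 0 h, 10140 to 13521 at 12 h and 10068 to 17448 at 24 h in 30 °C livers. In 22 °C livers the sums were 25505 to 34498, 12567 to 20430 and 11005 to 16219 at these times. Alb, Ttr and Serpina1c were called lower at both times and both temperatures. Cps1 was called lower at both times at 22 °C and at 12 h at 30 °C, and Apoa1 at 12 h at 30 °C. Hnf4a was called higher at 24 h at 30 °C. Neutrophil sums at 12 h were 304 to 500 in 30 °C livers and 203 to 289 in 22 °C livers. Kupffer cell sums were then 64.6 to 85.8 in 30 °C livers and 57.5 to 81.7 in 22 °C livers. The part of these marker changes in the rise of the class I genes at 4 h, or in their levels at 12 h and 24 h, was not tested.

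The mean course of the 10 genes, each centred and scaled over the 8 group means, was most like that of Gbp4, Gvin1, Dop1b, Bag3, Socs1, Ptp4a1, Il17ra and H2-T22 among named genes that are not of the 10 (Pearson r 0.990 to 0.994 over 8 group means, as a description). It was least like Mtap, Eomes and Kank2 (r −0.985 to −0.989). Gbp4 is an interferon-induced guanylate-binding protein and Socs1 a feedback inhibitor of interferon signalling. The others of the 8 are not described here, and whether the 8 share a function was not tested. Among the 10 themselves, r with the mean course they are part of ranged from 0.566 for B2m and 0.769 for H2-D1 to 0.984 for Tap1. The points are few and come from the libraries that gave the differences above, so no p is given.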

How the data were processed

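Liver RNA was made into 36 3′ end libraries with a CEL-Seq2 protocol changed for tissue, per the labels' protocols. Per the submitters' processing notes, Trimmomatic, kallisto and sleuth were used; the sources used here name no versions, genome build or index and do not say how molecular identifiers were handled. The deposited table holds signal per gene and library as scaled reads per base, which the authors computed, and a tpm column. The main signal behaves as scaled per gene and not per length: the tpm column divided by it fell with transcript length (Spearman rho −0.930 over 8624 genes). Levels of different genes are given in the tpm column, and the order of the lower genes differs in the main signal. The sums of the tpm column, 757040 to 1746038, are not those of plain TPM. Between 16.7% and 19.6% of values were whole reads within 0.01 read, so reads were not recovered and no count test was run; the estimated depth of 557000 to 2744000 reads rests on the commonest low values. Division by length of 3′ end reads, and word sharing between class I genes, can shift levels.

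Group means over 8 groups were fitted with limma 3.58.1 (R 4.3.3) to log2(value + 1), with an intensity trend, for the 8702 genes that averaged 5 or more over all libraries; 17 contrasts were tested two-sided, with Benjamini-Hochberg adjustment within each and a threshold of 0.05. Such folds understate the change of low genes. Intervals cover 95%. Alternatives were another pseudocount (5), no filter, upper-quartile rescaling, the tpm column, the groups of a contrast alone, a replicate block, and leaving out each library. The genes and lists were chosen with earlier results of these data known. Named were the 10 genes in every contrast, up to 4 called genes of smallest p per list and contrast, the 3 constitutive subunits, and the 8 genes most and 3 least like the mean course; marker genes, and Irf1 and Npepps at 24 h, were named beyond that rule. A regulator that the rule would name, and another motif searched in the promoter windows, are not reported here.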

Additional observations from a re-analysis of the deposited data

Results flagged for a closer look

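In 4 of the 80 groups of libraries examined (10 genes in 8 groups), 1 library stood far from the others of its group by the gap to its nearest neighbour over the whole range; chance alone gives about 1 in 20. H2-D1 was high in replicate 3 at 30 °C and 12 h (575.5 scaled reads per base, a gap of 0.842 of the range) and in replicate 2 at 22 °C and 12 h (663.0, 0.766). Tap2 was low in replicate 1 at 22 °C and 0 h (1.67, 0.849) and in replicate 1 at 22 °C and 24 h (2.38, 0.787), where both values are below 3 reads. The change since 0 h at 24 h differed between temperatures in Psmb10 by −2.28 and in Psmb8 by −1.23 on the log2 scale (30 °C minus 22 °C, limma adjusted p = 4.79e-05 and 0.0237). In Psmb8 the difference between temperatures was 0.60 at 0 h and −0.63 at 24 h, and neither was called.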

How the results depend on the processing

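Of 170 differences of the 10 genes over 17 contrasts, 157 kept their side of the threshold in every setting run, and 13 changed side in at least 1. The settings were 6 alternatives and 36 libraries left out in turn. Direction was compared only where a difference was called in at least 1 of the 2 fits compared, and 0 of these reversed. The direction of differences called in neither fit was not compared. The number of the 9 genes called for 24 h against 0 h at 30 °C was 3, against 5, in a fit of those groups alone. For the difference between temperatures in the change since 0 h at 24 h it was 1, against 2, with no filter and with the groups alone, and 1 to 3 when 1 library was left out. Over all genes, fits of the groups alone called 13, against 44, for 30 °C against 22 °C at 0 h, 7, against 18, at 4 h, and 603, against 924, for 24 h against 12 h at 22 °C. For 30 °C against 22 °C, leaving out 1 library gave 4 to 26 calls at 4 h and 188 to 590, against 371, at 12 h. The difference in change at 4 h had 2 calls with no filter, 0 with the tpm column or groups alone and 0 to 3 without 1 library, against 1; at 12 h it had 3 with no filter and 3 to 121 without 1 library, against 24. Causes were not tested.

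Same-numbered livers did not deviate together (correlations −0.0844 to 0.0667 over 17 pairs of libraries), so replicate numbers name libraries only. With the replicate block, Psmb10 at 24 h against 0 h at 30 °C was called (−0.60, adjusted p = 0.0314), no other of the 10 genes changed side, and the difference in change at 12 h had 76 calls over all genes. At these depths Tap2 before LPS lies below 3 reads, and its folds rest on few reads.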
